A study of Rattus norvegicus with 4 samples.

Results

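The 10 genes examined here are ones that adult beta cells are known to keep switched off or very low, and they were measured in neonatal rat islets after intrauterine growth restriction (IUGR). They were Ldha, Slc16a1, Hk1, Hk2, Acot7, Npy, Rest, Maf, Smad3 and Zfp36l1. The genes were chosen by name, as all non-control probes on the array whose gene name in the scanner files was one of them, which gave 11 probes for 10 of the 26456 genes or unnamed probes on the array. Npy had 2 probes and each of the other 9 genes had 1. Of the 10 genes, 8 could be tested and none was called at an adjusted p under 0.05. Ldha and Hk1 were lower in IUGR islets on all 4 arrays, by 0.35 and 0.36 on the log2 scale, and the other 6 had mixed signs.

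All samples were pancreatic islets of Sprague Dawley rats killed at postnatal day 14. The 4 IUGR samples came from pups of dams whose uterine arteries were tied off on both sides at embryonic day 18, and the 4 control samples from pups of dams given sham surgery. Each of 4 two-colour arrays held 1 IUGR sample and 1 control sample. Array 1 held IUGR replicate 2 and control replicate 1, and array 2 held IUGR replicate 1 and control replicate 2, both with IUGR in the dye Cy5. Array 3 held IUGR replicate 4 and control replicate 3, and array 4 held IUGR replicate 3 and control replicate 4, both with IUGR in Cy3. The labels call the samples biological replicates but give no sex, litter or number of pups per sample, so the errors below describe these samples only. They are SEs of the ratios within the 4 arrays with the dye effect taken out, and not the spread between samples. In whole islets, fewer cells of a type and less RNA per cell cannot be told apart.

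Beta cells release insulin in proportion to how much glucose they oxidise in their mitochondria, and so a mature beta cell represses genes that would let other fuels or low glucose trigger release. Low lactate dehydrogenase A and low monocarboxylate transport keep pyruvate inside the mitochondrial route and keep blood lactate and pyruvate out. Low hexokinases I and II keep glucose from entering glycolysis freely when blood glucose is low and insulin should not be released. Neonatal beta cells have not finished this repression, and other cells of the islet express several of these genes.

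Signal strength set which of the genes could be compared. The probes of Ldha, Slc16a1, Hk1, Acot7, Npy, Rest, Maf and Zfp36l1 were well above background in all 8 channels (4 IUGR and 4 control), so 8 of the 10 genes gave a signal in every sample, beside 60.4% of the 30367 probes on the array. Signals ran from 75.1 to 437 times the local background for Ldha in IUGR samples and from 216 to 1020 times in control samples. For Rest they ran from 1.88 to 4.92 times in IUGR samples and from 3.10 to 6.25 times in control samples. Hk2, the inducible hexokinase of muscle and fat, was well above background only in IUGR replicate 2 and control replicate 4, with signals of 1.09 to 1.93 times the background in IUGR samples and 1.49 to 1.92 times in control samples. Smad3, which carries TGF-beta and activin signals to the nucleus, was well above background in 0 of 8 channels, at 0.959 to 1.68 times the background in IUGR samples and 1.1 to 1.43 times in control samples. Neither was tested, and no fold is given for them.

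**Figure D1:**
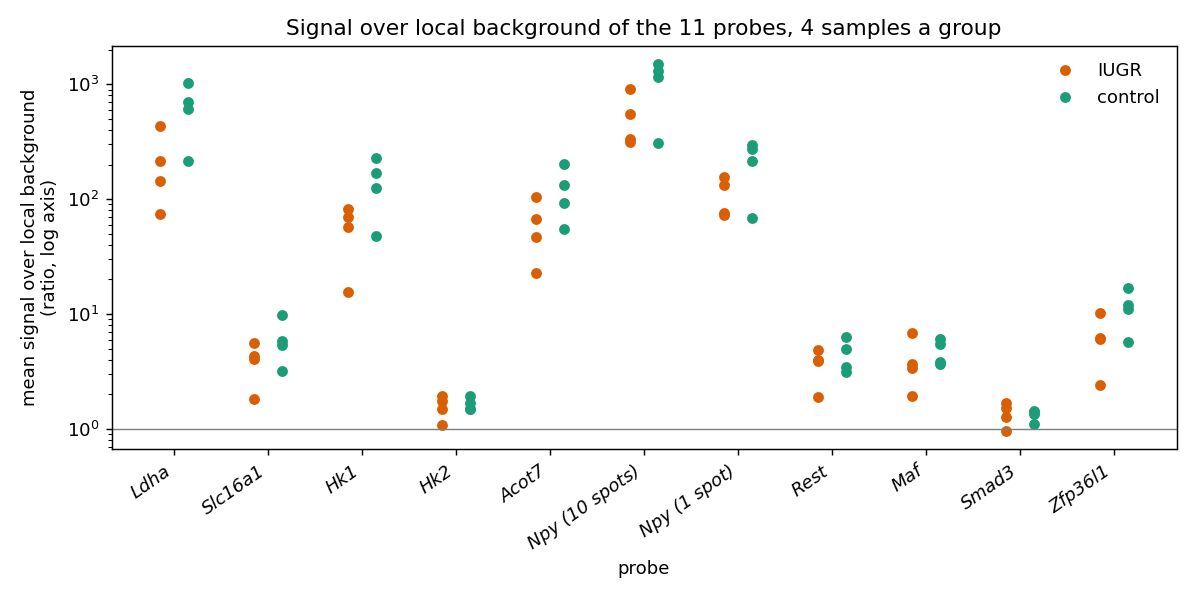
Mean signal divided by local background (ratio, log axis) for each of the 11 probes. Each point is 1 sample, with the 4 IUGR samples left of the 4 control samples, and the grey line marks a signal equal to the background. Hk2 and Smad3 sit below 2 in every sample, from 0.959 to 1.93.

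The channels differed in overall brightness before normalization. The median signal of the IUGR channel minus that of the control channel, on the log2 scale, was 1.68 on array 1 and -1.58, -2.42 and -1.55 on arrays 2, 3 and 4, so the IUGR channel was the brighter one only on array 1. Across genes, Pearson's r between the IUGR over control ratios of array 1 and another array was 0.13 for array 2, -0.23 for array 3 and -0.30 for array 4. Between any other pair of arrays it was 0.37 to 0.63. These correlations are across genes, which are not independent replicates. Levels below are log2 intensities after normalization within and between arrays, and ratios are log2 of IUGR over control within an array.

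Over all 20012 genes or unnamed probes tested, limma called 0 at an adjusted p under 0.05 (0%), with a smallest adjusted p of 0.339. Without adjustment 2735 had a p under 0.05. Accordingly 0 of the 8 genes tested were called. Of these 8, 2 (Ldha and Hk1) were lower on all 4 arrays, beside 9.7% of all genes tested, and 0 were higher on all 4. The same 2 kept one sign throughout, beside 20.7% of all genes tested. The same 2 had an unadjusted p under 0.05 with a lower level in IUGR islets, beside 6.54% of all genes tested. That count moved when single arrays were left out. Without array 3, 0 of the 8 genes had an unadjusted p under 0.05, and without array 4 only Hk1 had one. Without array 1, 4 had one, with Npy and Rest, both higher in IUGR islets, besides Ldha and Hk1. With median centring in place of loess, 1 of the 8 (Hk1) had one. The fitted ratios of the 8 genes split into 4 above 0 and 4 below 0. Their median was 0.02, beside 0.01 over all genes tested.

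**Figure D2:**
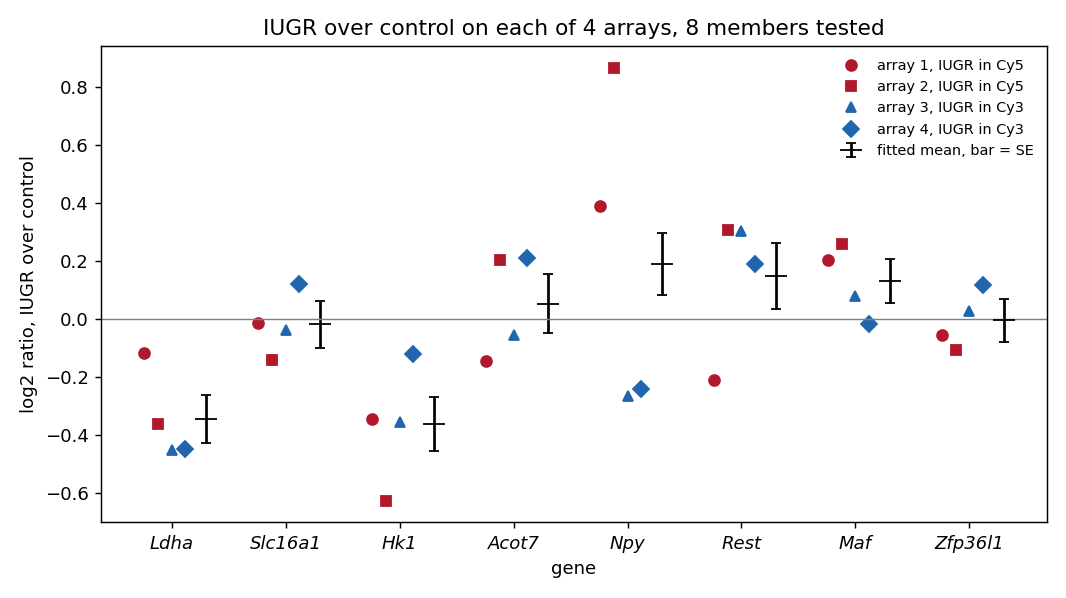
Log2 ratio of IUGR over control for the 8 genes tested. Coloured points are the 4 arrays, red with IUGR in Cy5 and blue with IUGR in Cy3, and the black mark is the mean fitted by limma with its SE. Ldha and Hk1 lie below 0 on all 4 arrays, and Npy lies above 0 on both red arrays and below 0 on both blue ones.

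Ldha encodes the subunit of lactate dehydrogenase that favours turning pyruvate into lactate. It was lower in IUGR islets on every array. Its level was 12.88, 13.44, 13.09 and 13.19 in IUGR replicates 1 to 4, against 13.56, 13.24, 13.65 and 13.54 in control replicates 1 to 4. IUGR replicates 1, 3 and 4 lay below every control sample, and IUGR replicate 2 lay above control replicate 2, so the groups overlapped. The ratios on arrays 1 to 4 were -0.12, -0.36, -0.45 and -0.45. The array with the bright IUGR channel thus gave the smallest decrease. The fitted ratio was -0.35 ± 0.08 (SE, n = 4 arrays, limma adjusted p = 0.339), a fold of 0.787 with a 95% interval of 0.676 to 0.915 before adjustment. With 1 array left out it was -0.41 without array 1 (adjusted p = 0.0840), -0.28 without array 2 (adjusted p = 0.882), -0.34 without array 3 (adjusted p = 0.952) and -0.35 without array 4 (adjusted p = 0.424). The probe lies at rn4 chr1:97412370-97412429 on the plus strand, and its record in the scanner files also lists predicted transcripts besides that of Ldha.

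The region just before the transcription start of Ldha is shown because the gene is a textbook target of hypoxia-inducible factor and of cAMP signalling, and the pregnancies had a reduced uterine blood supply. The 250 bases are from RefSeq on GRCr8, chr1:106507842-106508091, plus strand. Capitals mark the core of the hypoxia response element (ACGTG, or CACGT on the opposite strand) and the cAMP response element (TGACGTCA).
Ldha upstream: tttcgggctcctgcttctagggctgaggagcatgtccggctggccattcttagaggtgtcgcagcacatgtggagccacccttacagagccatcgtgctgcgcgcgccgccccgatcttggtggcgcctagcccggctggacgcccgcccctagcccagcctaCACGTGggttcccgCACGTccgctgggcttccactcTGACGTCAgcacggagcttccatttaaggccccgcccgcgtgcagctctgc
The core matched 3 times, with first bases 87, 86 and 73 bases before the start, and the first 2 matches overlap as the palindrome CACGTG. The cAMP response element matched once, from base 51 to base 44 before the start. On either strand, 16.6% of the 33469 upstream stretches of this length in the RefSeq table hold the core, and 1.59% hold the cAMP response element. A match of letters is a description and says nothing about binding in these islets.

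Slc16a1 encodes the monocarboxylate transporter MCT1, which carries lactate and pyruvate across the cell membrane. Its probe was far dimmer than that of Ldha, and its ratios lay on both sides of 0. Its level was 7.26, 7.44, 7.39 and 7.59 in IUGR replicates 1 to 4, against 7.46, 7.40, 7.63 and 7.27 in control replicates 1 to 4. The groups overlapped over nearly their whole range. Its ratios were -0.01, -0.14, -0.04 and 0.12, with a fitted ratio of -0.02 ± 0.08 (SE, n = 4, limma adjusted p = 0.906) and an unadjusted 95% interval of the ratio from -0.23 to 0.19. The probe lies at rn4 chr2:199879777-199879836, plus strand.

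Of 7 other lactate dehydrogenase and monocarboxylate transport genes on the array, 6 were tested, 3 were above 0 and 3 below, and 0 were called. Slc16a7, which encodes MCT2, a transporter with a high affinity for pyruvate, had ratios of -0.13, -0.89, -0.69 and -0.52. All 4 were below 0, and the fitted ratio was -0.56 ± 0.15 (SE, n = 4, limma adjusted p = 0.339). Ldhd, the mitochondrial enzyme for D-lactate, had a fitted ratio of 0.18 ± 0.10 (adjusted p = 0.378). The ratios of the tested genes ran from -0.56 to 0.18, with a median of -0.05.

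Ldha is one of many genes that hypoxia induces in many cells. Of 12 other such genes for glycolysis and transport tested, 6 were above 0 and 6 below, 0 were called, and the median was 0.02. On all 4 arrays 4 of the 12 (Egln3, Slc2a1, Eno1 and Pfkl) were lower, beside 9.7% of all genes tested, and 1 (Aldoa) was higher. Egln3, a prolyl hydroxylase that marks hypoxia-inducible factor for degradation, had ratios of -0.13, -0.48, -0.42 and -0.46 and a fitted ratio of -0.37 ± 0.09 (SE, n = 4, limma adjusted p = 0.339). Slc2a1, the glucose transporter GLUT1, had ratios of -0.14, -0.73, -0.85 and -0.26 and a fitted ratio of -0.49 ± 0.15 (adjusted p = 0.339).

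Hk1 encodes hexokinase I, a high-affinity hexokinase of most tissues that sits on the outer mitochondrial membrane. It was the other gene lower on every array. Its level was 10.63, 10.78, 11.24 and 11.25 in IUGR replicates 1 to 4, against 11.13, 11.26, 11.61 and 11.36 in control replicates 1 to 4. IUGR replicates 1 and 2 lay below every control sample, while IUGR replicates 3 and 4 lay above control replicate 1, so the groups overlapped. The ratios on arrays 1 to 4 were -0.35, -0.63, -0.36 and -0.12. The smallest decrease was on array 4, not on array 1. The fitted ratio was -0.36 ± 0.09 (SE, n = 4, limma adjusted p = 0.339), a fold of 0.777 with an unadjusted 95% interval of 0.655 to 0.922. With 1 array left out it was -0.43 without array 1 (adjusted p = 0.0882), -0.29 without array 2 (adjusted p = 0.882), -0.30 without array 3 (adjusted p = 0.952) and -0.42 without array 4 (adjusted p = 0.424). The scanner files give no rn4 position for this probe, so its place in the gene was not checked here.

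RefSeq gives Hk1 a pair of transcription starts, and the stretches before both are shown because the probe does not say which start the measured RNA came from. They lie on GRCr8 chromosome 20, minus strand, at chr20:30874815-30875064 and chr20:30842073-30842322. Capitals again mark the hypoxia response element core.
Hk1 upstream 1: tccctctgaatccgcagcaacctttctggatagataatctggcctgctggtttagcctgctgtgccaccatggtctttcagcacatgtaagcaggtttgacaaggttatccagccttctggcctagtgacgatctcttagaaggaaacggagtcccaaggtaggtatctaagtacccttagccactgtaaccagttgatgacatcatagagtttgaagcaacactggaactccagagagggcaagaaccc
Hk1 upstream 2: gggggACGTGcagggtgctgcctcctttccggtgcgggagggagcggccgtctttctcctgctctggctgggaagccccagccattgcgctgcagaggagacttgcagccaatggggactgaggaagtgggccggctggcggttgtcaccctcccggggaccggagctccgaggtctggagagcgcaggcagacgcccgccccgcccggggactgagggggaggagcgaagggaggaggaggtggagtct
The first stretch held none of the motifs searched. The second held 1 core, 245 to 241 bases before the start, and 2 matches to the GC box GGGCGG (or CCGCCC), a motif found in 30.5% of all upstream stretches. Over all 10 genes, which had 12 upstream stretches in the table, the hypoxia core was found for 3 genes (Ldha, Slc16a1 and Hk1), the cAMP response element for 1 (Ldha) and the GC box for 8. Counted by stretch, as the shares of all upstream stretches are, these were 3, 1 and 8 of 12.

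Hk3, a further hexokinase found in blood cells, had ratios of -0.10, -0.09, 0.34 and 0.28 and a fitted ratio of 0.11 ± 0.07 (SE, n = 4, limma adjusted p = 0.434).

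The genes whose levels over the 8 channels were most like those of Ldha, among 15107 with a symbol, were Gfra1 (Pearson r = 0.967), Ifi47 (r = 0.964) and Lyz2 (r = 0.942). For Hk1 they were LOC691918 (r = 0.970), Bok (r = 0.965) and Klhl5 (r = 0.964). These are the highest of many correlations over 8 channel levels that share arrays and normalization, and they are descriptions. Lyz2, lysozyme of macrophages and other myeloid cells, had a fitted ratio of -0.68 ± 0.12 (SE, n = 4, limma adjusted p = 0.339). Cd163 of macrophages and the leukocyte marker Cd68 went the other way, at 0.89 ± 0.14 (adjusted p = 0.339) and 0.23 ± 0.12 (adjusted p = 0.350).

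**Figure D3:**
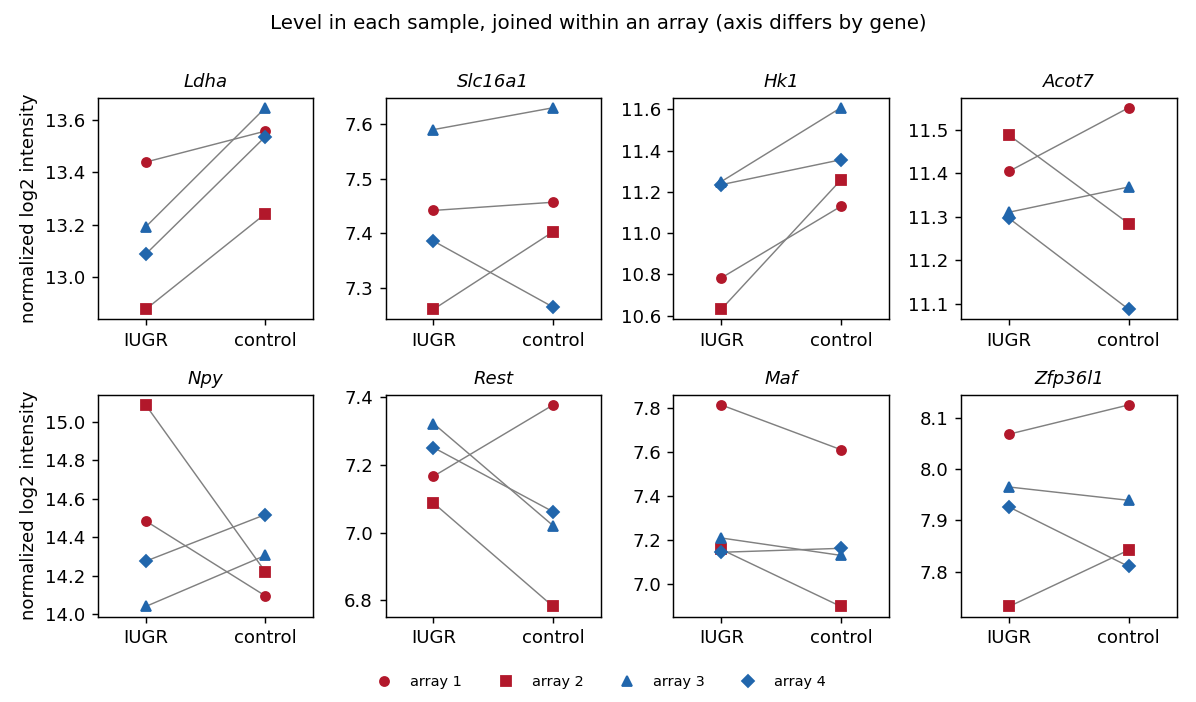
Normalized log2 intensity of the 8 genes tested in each sample, with IUGR left and control right and a grey line joining the samples of 1 array. Red marks arrays with IUGR in Cy5 and blue those with IUGR in Cy3, and each gene has its own axis. All 4 lines slope upward to control for Ldha and Hk1, and the lines of the other 6 genes slope both ways.

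Acot7 encodes a thioesterase that splits long-chain acyl-CoA to free fatty acid. It was higher in IUGR on 2 arrays and lower on 2. Its level was 11.49, 11.40, 11.30 and 11.31 in IUGR replicates 1 to 4, against 11.55, 11.28, 11.37 and 11.09 in control replicates 1 to 4. Every IUGR sample lay within the range of the control samples. The ratios were -0.15, 0.20, -0.06 and 0.21, and the fitted ratio was 0.05 ± 0.10 (SE, n = 4, limma adjusted p = 0.783), with an unadjusted 95% interval of the ratio from -0.21 to 0.32. The probe lies at rn4 chr5:169501845-169501904, plus strand. Among 7 other acyl-CoA thioesterase genes tested, 2 were above 0, 5 were below and 0 were called. Acot1, a cytosolic long-chain thioesterase, had ratios of 0.01, -0.51, -1.05 and -0.52 (fitted -0.52 ± 0.14, SE, adjusted p = 0.339). Acot8, a peroxisomal thioesterase, had ratios of -0.08, 0.65, 0.64 and 0.34 (fitted 0.39 ± 0.15, adjusted p = 0.339).

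Npy encodes neuropeptide Y, a peptide that immature beta cells make and that lowers insulin release. Its ratio followed the dye. The level was 15.09, 14.49, 14.28 and 14.04 in IUGR replicates 1 to 4, against 14.10, 14.22, 14.31 and 14.52 in control replicates 1 to 4. IUGR replicate 1 was the highest sample of all and IUGR replicate 4 the lowest. The ratios were 0.39 and 0.87 on the arrays with IUGR in Cy5, and -0.26 and -0.24 on those with IUGR in Cy3. With the dye term in the model, the fitted ratio was 0.19 ± 0.11 (SE, n = 4, limma adjusted p = 0.377) and the dye effect (Cy5 over Cy3) was 0.44. The SD of the 4 ratios as measured was 0.54. Without array 1 the fitted ratio was 0.31 (adjusted p = 0.126), and without array 2 it was 0.07.

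Both Npy probes gave the dye split or part of it. The probe used for the test had 10 spots an array, of which 6 to 9 were usable, and its spots within an array differed by an SD of 0.03 to 0.10. It lies at rn4 chr4:78045125-78045184, plus strand. The second probe, with 1 spot, lies at chr4:78043176-78043235 and is shown as a second reading of the same RNA.
Npy second probe: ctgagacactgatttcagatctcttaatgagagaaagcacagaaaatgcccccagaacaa
Its ratios were 0.29, 0.75, -0.10 and 0.03 on arrays 1 to 4, so it was higher in IUGR on both arrays with IUGR in Cy5 and near 0 on the other pair. The insulin gene Ins2 split by dye in the same way, with ratios of 1.26 and 1.72 with IUGR in Cy5, and -1.03 and -0.79 with IUGR in Cy3. The part of the dye in these ratios was not tested beyond the dye term.

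Among the relatives and receptors of neuropeptide Y, 5 genes were tested, 0 were above 0 and 5 were below, and 0 were called. Their median was -0.12. Npy1r, a receptor for neuropeptide Y, had ratios of -0.12, -1.86, -0.85 and -0.67, all below 0, and a fitted ratio of -0.87 ± 0.29 (SE, n = 4, limma adjusted p = 0.339). Npy4r, a receptor that prefers pancreatic polypeptide, had a fitted ratio of -0.12 ± 0.08 (adjusted p = 0.429). Pyy, the peptide YY of endocrine cells, had ratios of 1.34, -0.20, -2.08 and -0.63, a spread far wider than its fitted ratio of -0.39 ± 0.35 (adjusted p = 0.536).

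Rest encodes the repressor that silences neuronal genes outside the nervous system, and its loss in endocrine cells is part of their maturation. Array 1 went one way and the other arrays the other. The level was 7.09, 7.17, 7.25 and 7.32 in IUGR replicates 1 to 4, against 7.38, 6.78, 7.02 and 7.06 in control replicates 1 to 4. Control replicate 1 was above every IUGR sample, and the other 3 control samples were below every IUGR sample. The ratios were -0.21, 0.31, 0.30 and 0.19, with a fitted ratio of 0.15 ± 0.11 (SE, n = 4, limma adjusted p = 0.479). Array 1, the array with the negative ratio, is also the one with the bright IUGR channel. With brightness as a covariate in place of the dye, the fitted ratio was 0.02. The probe, shown to identify what was measured, lies at rn4 chr14:33150293-33150352 on the minus strand.
Rest probe: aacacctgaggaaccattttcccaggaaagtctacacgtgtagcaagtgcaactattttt

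The corepressors through which REST acts and the neuronal genes that carry its sites were split as well. Of 8 corepressor genes tested, 5 were above 0 and 3 below, with a median of 0.05. Rcor1, the scaffold CoREST, had ratios of -0.16, -1.30, -0.93 and -0.39 and a fitted ratio of -0.69 ± 0.22 (SE, n = 4, limma adjusted p = 0.339). Ehmt2, a histone methyltransferase, had ratios of 0.08, 1.07, 0.96 and 0.34 and a fitted ratio of 0.61 ± 0.20 (adjusted p = 0.339). Of 14 neuronal genes tested, 10 were above 0 and 4 below, with a median of 0.09, and 0 were called. Unc13a, which primes secretory vesicles, had ratios of -0.10, 0.99, 1.23 and 0.74 (fitted 0.71 ± 0.21, adjusted p = 0.339). Syt7, a calcium sensor for insulin granule release, had ratios of 0.02, 0.91, 0.36 and 0.58 (fitted 0.47 ± 0.17, adjusted p = 0.339).

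Maf encodes c-MAF, a transcription factor of alpha cells that activates glucagon. It was higher in IUGR on 3 of 4 arrays. The level was 7.16, 7.81, 7.14 and 7.21 in IUGR replicates 1 to 4, against 7.61, 6.90, 7.13 and 7.16 in control replicates 1 to 4. The 2 samples of array 1 stood above the other 6. The ratios were 0.20, 0.26, 0.08 and -0.02, and the fitted ratio was 0.13 ± 0.08 (SE, n = 4, limma adjusted p = 0.382). The probe lies at rn4 chr19:45860202-45860261 on the minus strand. It is printed because MAF genes resemble each other, and the sequence identifies the one measured.
Maf probe: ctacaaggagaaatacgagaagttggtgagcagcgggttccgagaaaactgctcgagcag
Of 5 other MAF family genes tested, 4 were above 0, 1 was below and 0 were called, with a median of 0.46. Mafa, the factor that switches on insulin and maturity genes in adult beta cells, had ratios of -0.24, 1.53, 1.84 and 0.63. It was lower in IUGR on array 1 and higher on the other 3, with a fitted ratio of 0.94 ± 0.36 (SE, n = 4, limma adjusted p = 0.339). Mafg, a small MAF partner, had ratios of -0.15, 0.65, 0.89 and 0.47 and a fitted ratio of 0.46 ± 0.16 (adjusted p = 0.339).

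Zfp36l1 encodes a protein that binds AU-rich elements of messenger RNA and speeds their decay. Its fitted ratio was the closest to 0 of the 8 genes. The level was 7.73, 8.07, 7.93 and 7.97 in IUGR replicates 1 to 4, against 8.13, 7.84, 7.94 and 7.81 in control replicates 1 to 4. The groups overlapped, with the lowest sample in IUGR and the highest in control. The ratios were -0.06, -0.11, 0.03 and 0.12, and the fitted ratio was -0.006 ± 0.075 (SE, n = 4, limma adjusted p = 0.970), with an unadjusted 95% interval of the ratio from -0.20 to 0.19. The probe lies at rn4 chr6:103121166-103121225, minus strand. Its relatives Zfp36 and Zfp36l2, which also promote messenger RNA decay, had fitted ratios of -0.16 ± 0.09 (adjusted p = 0.362) and 0.30 ± 0.17 (adjusted p = 0.377).

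Smad3 itself could not be measured, but other genes of TGF-beta and activin signalling could. Of 17 tested, 5 were above 0 and 12 below, with a median of -0.07, and 0 were called. Ctgf, a matrix-associated growth factor that TGF-beta induces, had ratios of -0.39, -1.66, -0.75 and -0.49, all below 0, and a fitted ratio of -0.82 ± 0.22 (SE, n = 4, limma adjusted p = 0.339). Smad4, the common partner of the receptor-activated SMADs, had ratios of 0.24, 0.55, 0.24 and 0.11, all above 0, and a fitted ratio of 0.29 ± 0.09 (adjusted p = 0.339).

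Further genes reported as low in beta cells lay on both sides of 0. Of 16 tested, 9 were above 0 and 7 below, 0 were called, and the median was 0.10. On all 4 arrays 2 were higher and 2 lower, beside 20.7% of all genes that kept 1 sign. Tgm2, a transglutaminase, had ratios of -0.55, -1.11, -0.18 and -0.35 and a fitted ratio of -0.55 ± 0.12 (SE, n = 4, limma adjusted p = 0.339). Yap1, a transcriptional coactivator of growth that endocrine cells lose, had ratios of 0.31, 0.86, 0.40 and 0.19 and a fitted ratio of 0.44 ± 0.12 (adjusted p = 0.339).

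Genes of the mature and the immature beta cell were set beside them. Of 8 maturity genes tested, 7 were above 0 and 1 below, with a median of 0.32 and 0 called. Slc2a2, the glucose transporter of rodent beta cells, had ratios of 0.20, 0.45, 0.39 and 0.23 and a fitted ratio of 0.32 ± 0.09 (SE, n = 4, limma adjusted p = 0.339). Glp1r, the receptor for the incretin GLP-1, had ratios of 0.21, 0.65, 0.35 and 0.20 and a fitted ratio of 0.35 ± 0.11 (adjusted p = 0.339). The median of the maturity genes was -0.16 on array 1, against 0.54, 0.41 and 0.22 on arrays 2, 3 and 4. Of 6 genes of immature beta cells, 4 were above 0 and 2 below, with a median of 0.22 and 0 called. Gast, the gastrin made by fetal islet cells, had ratios of 0.68, 0.91, 0.10 and -0.15 (fitted 0.38 ± 0.09, adjusted p = 0.339). Dlk1, a membrane protein of fetal endocrine cells, had ratios of 0.36, 0.39, 0.19 and 0.56 (fitted 0.38 ± 0.09, adjusted p = 0.339).

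**Figure D4:**
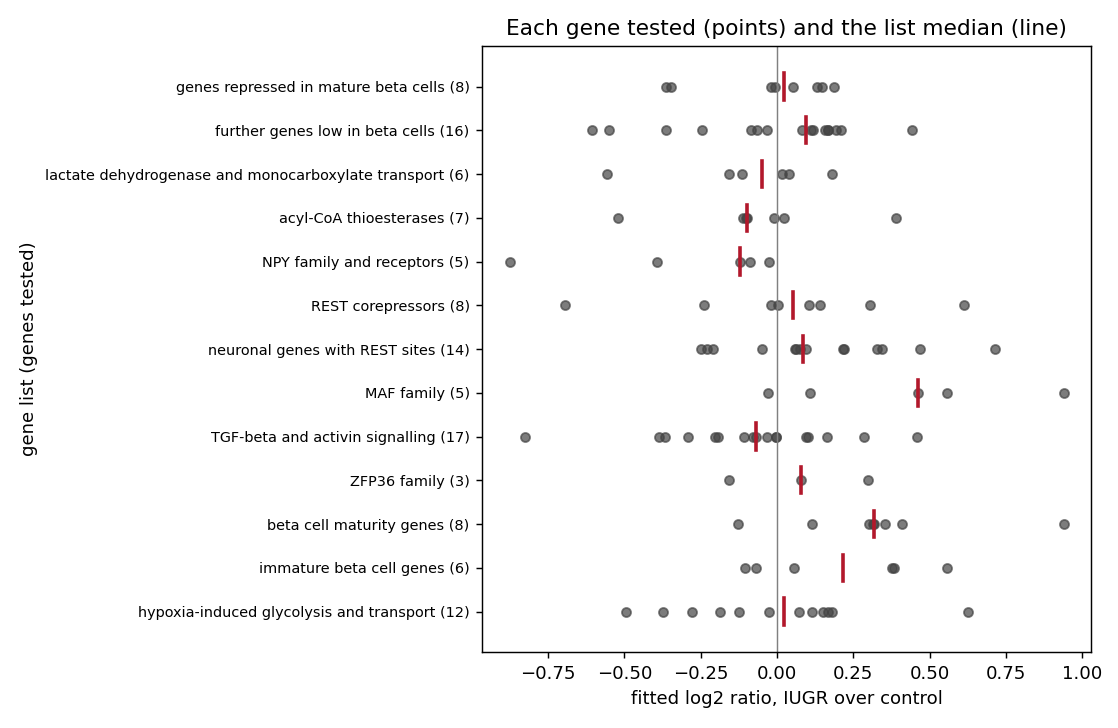
Fitted log2 ratio of IUGR over control for each gene tested (points) in each gene list shown, with the list median as a red line and the number tested in brackets. The genes repressed in mature beta cells run from -0.36 to 0.19 around a median of 0.02, and the maturity genes have a median of 0.32.

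Several of the genes are expressed by other cells of an islet preparation, so the markers of those cells are given beside them. All 6 islet hormone markers were well above background in all 8 channels and so were all 7 acinar, all 6 fibroblast, all 5 endothelial, all 6 leukocyte and all 3 red blood cell markers. Of the 6 leukocyte markers 2 (Cd163 and Cd68) were above 0 and 4 below, with a median ratio of -0.73. Their medians were 0.03, -0.48, -1.35 and -0.98 on arrays 1 to 4. Their summed normalized level ran from 13658 to 23891 in IUGR samples and from 17673 to 33535 in control samples. The part of leukocytes in the ratio of Ldha was not tested. Of 5 duct markers 1 was above 0 and 4 below, with a median of -0.43, and Krt19 had ratios of -0.36, -0.78, -0.80 and -0.62 and a fitted ratio of -0.64 ± 0.10 (SE, n = 4, limma adjusted p = 0.339). The duct markers summed to 4618 to 6488 in IUGR samples and to 4705 to 8048 in control samples. All 7 acinar markers were above 0, with a median of 0.41 and medians of 0.53, 0.16, 1.67 and -0.24 on arrays 1 to 4. Their sums ran from 509981 to 1213973 in IUGR samples and from 377079 to 762519 in control samples. Of 4 Schwann and neural markers tested 1 was above 0 and 3 below, with a median of -0.45. They summed to 1479 to 2871 in IUGR samples and to 2912 to 5174 in control samples. All 3 red blood cell and all 5 endothelial markers were above 0, with medians of 0.61 and 0.15, but of -0.21 and -0.43 on array 1. The part of any of these cells in the ratios above was not tested.

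The direction of Ldha and Hk1 did not turn under any of 18 other ways of processing the arrays, and no setting brought either below an adjusted p of 0.05. Several of these settings could not turn it. Changing the filter or weights, dropping the dye term or pairing by replicate number leaves the fitted ratio of all 8 genes as reported. Averaging over probes does so for genes with 1 probe. Leaving out 1 array cannot turn a gene that is below 0 on all 4. The fitted ratio ran from -0.71 to -0.26 for Ldha, with a smallest adjusted p of 0.0840, and from -0.72 to -0.29 for Hk1, with a smallest adjusted p of 0.0882. Rest and Maf also stayed above 0 in all 18, from 0.02 to 0.45 and from 0.11 to 0.46. The sign turned in 4 of 18 settings for Acot7, in 3 each for Slc16a1 and Zfp36l1, and in 1 for Npy. Loess replaced by median centring moved the value of each of the 8 genes most. Under it Ldha was -0.71 and Hk1 -0.72, and Acot7 and Npy turned to -0.29 and -0.19.

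**Figure D5:**
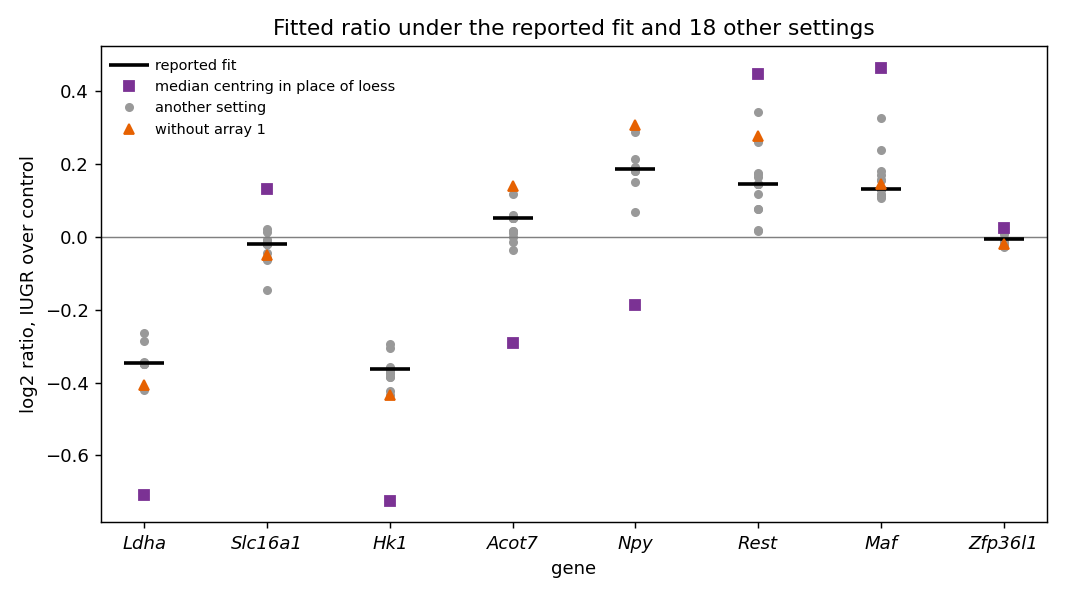
Fitted log2 ratio of IUGR over control of the 8 genes under the reported fit (black bar) and 18 other settings. Purple squares are median centring in place of loess, orange triangles the fit without array 1, and grey points the other settings. Ldha and Hk1 stay below 0 and Rest and Maf above 0 in every setting shown.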

How the data were processed

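Two-colour Agilent arrays (60-base probes) compared RNA of 4 IUGR and 4 control islet samples. Per the file headers, the authors read the scans with Agilent Feature Extraction 10.10.1.1 (protocol GE2_1010_Sep10, array design 028282). From the deposited scanner files, the mean signal and the median local background of each spot, both in units of intensity, were used, with the deposited flag columns. The deposited value table holds log2 ratios, and the submitters' processing notes name limma without settings. Set against the scanner files, its 43030 rows, with 42997 to 43026 values per array, followed the order of the spots and correlated at r = 0.988 to 0.998 with the loess-normalized Cy5 over Cy3 log2 ratio without background subtraction, so its direction is Cy5 over Cy3. Its medians ran from -0.029 to 0.008.

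All steps ran in limma 3.58.1 and statmod 1.5.0 under R 4.3.3. Background correction was by normexp (offset 50). Spots with an outlying local background (222, 44, 145 and 52 on arrays 1 to 4) took the array's and channel's median background instead. Loess normalization within arrays gave control spots weight 0. Outlier spots were then dropped, the spots of a probe averaged and every ratio expressed as IUGR over control. A gene with several probes was represented by its brightest. Testing required a value on all 4 arrays and a signal well above background in at least 2 IUGR or 2 control channels. The limma fit held a dye term (2 residual and 2.76 prior degrees of freedom), with Benjamini-Hochberg adjustment over all genes tested and a threshold of 0.05. The SE is the moderated SE of that fit, with the dye effect taken out. Levels per channel were scaled between arrays by Aquantile. The number of arrays limits the precision.

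The genes and lists were chosen with earlier results of these data known. From each list the text names the 2 tested genes with the smallest p. For Ldha and Hk1 it names the 3 genes whose 8 channel levels correlate best with theirs, and other genes were named after their values were seen. Some genes that these rules take are not reported here. Of the list genes, 8 probes were named through a RefSeq accession (GRCr8 table). Upstream sequences came from RefSeq (GRCr8) and probe positions (rn4) from the scanner files. Exon and UTR annotation was not used here. The fit was tested on simulated data. Other settings changed the background correction, normalization, filter, dye term, weights, probe rule and arrays used.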

Additional observations from a re-analysis of the deposited data

Results flagged for a closer look

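The 4 array ratios of 50 named genes were examined for a single array far from the other 3. Chance flags about 1 in 20 genes, and the share flagged here was no larger. Egln3, the hypoxia-induced prolyl hydroxylase listed beside Ldha, stood out on array 1, where its log2 ratio of IUGR over control was -0.13, against -0.48 to -0.42 on the other arrays. Cd163, the haemoglobin scavenger receptor of macrophages, stood out on array 1 with a log2 ratio of 0.34, against 1.02 to 1.15 on the other arrays. No gene repressed in mature beta cells was among them.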

How the results depend on the processing

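No setting called any of the 8 genes tested. With median centring instead of loess, 15 genes of 20012 were called, all 15 lower in IUGR islets, whereas the reported fit and each of the other 17 settings called 0. The number of genes at an unadjusted p under 0.05 ran from 474 (without array 3) to 6206 (without array 1), against 2735 as reported, and was 1186 under median centring, 1081 with channel brightness as a covariate, 1472 with outlying backgrounds left out and 1482 with them kept as measured. The median ratio of the genes repressed in mature beta cells, 0.02 as reported, was -0.082 under median centring, -0.0014 with Agilent processed signals and -0.0085 with channel brightness as a covariate, and ran from -0.021 to 0.064 with each array left out in turn. Under median centring Slc16a1 turned to 0.13, Acot7 to -0.29, Npy to -0.19 and Zfp36l1 to 0.024. With channel brightness as a covariate Acot7 turned to -0.0014. With each array left out in turn, Slc16a1 ran from -0.059 to 0.021, Acot7 from -0.035 to 0.14 and Zfp36l1 from -0.028 to 0.017. The cause of these turns was not tested. In the deposited value table Ldha and Hk1 were -0.35 and -0.37.

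IUGR and control samples share replicate numbers. The reported fit did not treat same-numbered samples as pairs, and the replicate block did. Deviations of same-numbered samples from their group means correlated at -0.05, -0.29, 0.09 and -0.17. Same-numbered samples never shared an array, and samples that did correlated at 0.09, 0.33, 0.28 and 0.11. These values therefore cannot settle whether the numbers pair the samples. With the replicate block, 0 genes were called and 2246 had an unadjusted p under 0.05, among them Hk1 but not Ldha, and the adjusted p was 0.501 for Ldha and 0.379 for Hk1. Signal over background limits Hk2 and Smad3, whose probes were too dim to compare.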
